A study of Mus musculus with 6 samples.

Results

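A mouse heart allograft taken from mice given cyclosporin A was compared with an untreated heart syngraft, to describe which genes still differed under the drug and which lay beyond the syngraft level. The comparison used 2 of the 6 arrays of the series and the 22626 of its 22690 probe sets that are not controls, which gave 12393 genes. All 6 samples were total RNA of transplanted mouse hearts, with 1 array per group. In the order used below, CsA was an allograft from mice given cyclosporin A at 15 mg/kg every 24 h. ABH4 was an allograft from mice given 4-amino tetrahydrobiopterin at 50 mg/kg every 8 h, and BH4 one from mice given tetrahydrobiopterin at 50 mg/kg every 8 h. NIL was an allograft from mice given N-imino ethyl-L-lysine at 5 mg/kg every 8 h. Allogen was an untreated allograft, and Syngen an untreated graft between syngeneic mice. Donor and recipient strains, age, the day of removal and any pooling of animals are not given in the sources used here. The syngraft differed from every allograft in the donor and recipient pairing as well as in alloimmunity, and those differences cannot be told apart on these arrays.

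Cyclosporin A binds cyclophilin in T cells, and the complex blocks the phosphatase calcineurin, so that NFAT stays out of the nucleus and interleukin-2 and other cytokine genes of the activated T cell are not switched on. An untreated heart allograft is invaded by T cells, NK cells and macrophages. Interferon-gamma from the lymphocytes acts on graft cells, which then make T cell attracting chemokines, guanylate-binding proteins, peptide-loading proteins and MHC molecules. A syngraft goes through the same surgery and reperfusion without a difference in donor antigens.

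The values were signal intensities, rescaled so that all arrays shared a median, and set to a floor of 34.8 (5.12 on the log2 scale) where they were lower. A fold against an array at the floor is a lower bound and is written "at least". The arrays had similar technical values. The deposited medians were 88.3 on CsA and 88.5 on Syngen. The 3' to 5' signal ratio was 1.06 on CsA and 1.13 on Syngen for Actb, and 0.788 on CsA and 0.876 on Syngen for Gapdh. Of the 12393 genes, 9499 were above the floor on CsA and 9531 on Syngen. The 9 cardiomyocyte markers, among them Myh6, Tnni3 and Actc1, were all above the floor on both arrays and summed to 54501 on CsA and 55716 on Syngen. With 1 array in each group the differences have no replicate check, and no p-value could be made. A difference of at least 2-fold is used only to count and describe genes.

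The CsA allograft stood apart from the syngraft in a small part of the transcriptome, with interferon-induced genes among the largest differences above the syngraft and acute phase genes among the largest below it. Of all genes, 282 (2.28%) had at least 2-fold more signal on CsA than on Syngen, and 176 (1.42%) at least 2-fold less. At least 3-fold higher were 89 genes, and 29 were at least 3-fold lower. At the 1.5-fold threshold the counts were 846 higher (6.83%) and 724 lower (5.84%). Counts of list members given below are to be read beside these shares. Counted over single probe sets, 478 (2.11%) were at least 2-fold higher and 347 (1.53%) at least 2-fold lower. The 2-fold counts depended on the floor. With it at the 10th percentile they were 811 higher and 699 lower, and with it at the 50th percentile 143 higher and 56 lower. The median log2 difference over all genes was 0, its SD over genes was 0.44, and the 5th and 95th percentiles were -0.63 and 0.69.

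**Figure D1:**
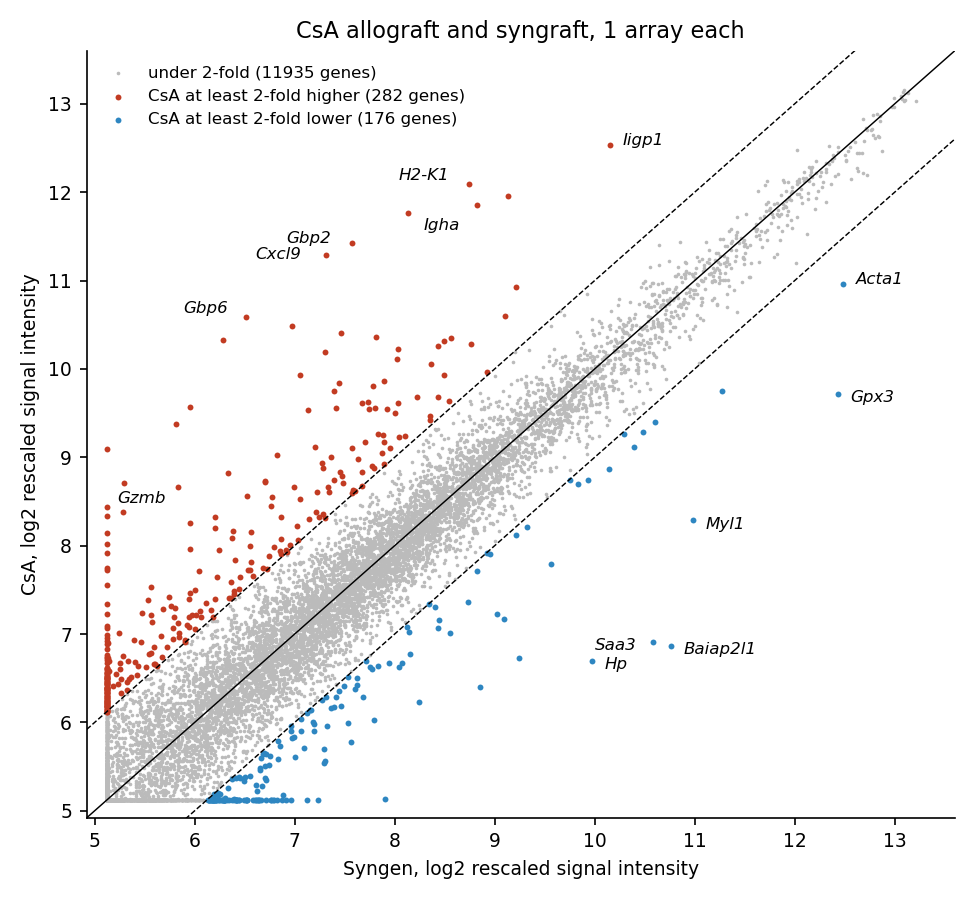
Log2 rescaled signal intensity of 12393 genes on CsA (vertical axis) against Syngen (horizontal axis), 1 array each. The solid line marks equal signal and the dashed lines a 2-fold difference. The 282 genes at least 2-fold higher on CsA include Gbp6, Cxcl9 and Gzmb, and the 176 at least 2-fold lower include Baiap2l1, Saa3, Hp and Gpx3.

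Genes of the interferon-gamma response were above the syngraft together. All 11 measured interferon-gamma induced GTPases were at least 1.5-fold higher on CsA, with a median log2 difference of 2.82, where 6.83% of all genes were. Another 18 genes of the interferon-gamma response had 14 members at least 1.5-fold higher, none lower and a median of 1.41. Against the syngraft, the untreated allograft had medians of 3.69 and 2.38 for the same lists. The CsA and Allogen differences share the Syngen array, so they are given side by side and are not independent.

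The ligand itself, Ifng, had signals of 102 on CsA, 738 on ABH4, 400.0 on BH4, 484 on NIL, 586 on Allogen and the floor value on Syngen. It was at least 2.94-fold higher on CsA than on Syngen and 5.72-fold lower on CsA than on Allogen. On CsA it was between the floor of the syngraft and the level of the other 4 allografts, nearer the floor.

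The chemokines Cxcl9, Cxcl10 and Cxcl11, which all bind Cxcr3 on activated T cells, were among the genes furthest above the syngraft. Cxcl10 had signals of 1284 on CsA, 1749 on ABH4, 1488 on BH4, 1222 on NIL, 1442 on Allogen and 77.9 on Syngen, so that CsA lay within the range of the other allografts and 16.5-fold higher than Syngen. Cxcl9 had signals of 2498 on CsA, 4265 on ABH4, 3928 on BH4, 3712 on NIL, 3938 on Allogen and 159 on Syngen, and was 15.7-fold higher on CsA than on Syngen. Here CsA was the lowest of the 5 allografts and still far above the syngraft. Cxcl11 had signals of 545 on CsA, 1017 on ABH4, 506 on BH4, 693 on NIL, 924 on Allogen and the floor value on Syngen. It was at least 15.7-fold higher on CsA, and its other probe set was at the floor on both arrays. Cxcr3, the receptor of all 3, had signals of 106 on CsA, 174 to 280.1 on the other 4 allografts and 64.5 on Syngen, and was 1.64-fold higher on CsA than on Syngen.

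Guanylate-binding proteins and immunity-related GTPases, which act on the vacuoles of intracellular pathogens, were higher together. Gbp6 had the largest difference of all genes above the floor on both arrays, with signals of 1537 on CsA, 2934 on ABH4, 3104 on BH4, 2735 on NIL, 3352 on Allogen and 91.4 on Syngen. It was 16.8-fold higher on CsA than on Syngen. Gbp2 had signals of 2748 on CsA, 4804 on ABH4, 5503 on BH4, 4451 on NIL, 5257 on Allogen and 191 on Syngen and was 14.4-fold higher. For both genes CsA lay between Syngen and the other 4 allografts, nearer the allografts on the log2 scale. Ifi47 was 7.68-fold higher, at 1353 on CsA, 2064 to 2260.4 on the other 4 allografts and 176 on Syngen. Irgm2 was 7.35-fold higher, at 974 on CsA, 1579 to 2744 on the other 4 allografts and 132 on Syngen. Iigp1, for which the 5 allografts lay within 1.5-fold of each other, had signals of 5944 on CsA, 6804 on ABH4, 7892 on BH4, 6778 on NIL, 7728 on Allogen and 1142 on Syngen.

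Other genes far above the syngraft had different roles. Cd274, which encodes the PD-1 ligand PD-L1, had signals of 663 on CsA, 1723 on ABH4, 1512 on BH4, 1479 on NIL, 1882 on Allogen and 56.4 on Syngen. It was 11.8-fold higher on CsA than on Syngen and 2.84-fold lower on CsA than on Allogen. Socs1, an inhibitor of the JAK kinases, was at least 6.16-fold higher, with 214 on CsA, 252 to 410.1 on the other 4 allografts and the floor value on Syngen. Irf1, a transcription factor induced by interferon-gamma, was 2.82-fold higher, with 1553 on CsA, 2288 to 2994 on the other 4 allografts and 551 on Syngen. Parp3, a poly(ADP-ribose) polymerase, was 11.4-fold higher, with 1435 on CsA, 1863 to 2191 on the other 4 allografts and 125 on Syngen, and its 2 probe sets gave log2 differences of 1.04 to 3.52. BC023105, which has no role given here, was 12.3-fold higher.

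The promoters of these genes were read to show the sequence context of the response. Of the 29 measured members of both interferon-gamma lists, 19 had a window in the RefSeq promoter table (GRCm38.p6, 250 bases before to 50 after a start), which gave 23 windows. The core of the interferon-stimulated response element was searched as GAAANNGAA on both strands and the gamma-activated site as TTCNNNGAA, and these motifs can overlap. The response element core was in 11 of the 23 windows (47.8%), against 2812 of all 32851 windows (8.56%). The gamma-activated site was in 6 (26.1%), against 2726 of all windows (8.30%), and either motif in 14 (60.9%), against 5187 of all windows (15.8%). A match is a description of the letters and not a mapped site. The genes were put on the lists as interferon-gamma response genes, so these shares describe the lists and say nothing about the CsA array. Windows are not all separate: Gbp3, Irf1, Irf8 and Casp4 gave 2 each, and those of Casp4 overlap. The 4 windows printed belong to the list members with the largest differences that held a match, and capitals mark the match to the response element core. Gbp6 and Cxcl11 had no window in the table. The Cxcl10 window is chr5:92348840-92349139 on the minus strand, and its match begins 213 bases before the start. The Cxcl9 window is chr5:92328030-92328329 on the minus strand, with the match 175 bases before the start. The Gbp2 window is chr3:142620413-142620712 on the plus strand, with the match 58 bases before, and the Cd274 window is chr19:29367188-29367487 on the plus strand, with the match 76 bases before. Sequences run 5′ to 3′ on the gene's strand, so TTC at the left of a capital stretch marks a match on the opposite strand.
Cxcl10: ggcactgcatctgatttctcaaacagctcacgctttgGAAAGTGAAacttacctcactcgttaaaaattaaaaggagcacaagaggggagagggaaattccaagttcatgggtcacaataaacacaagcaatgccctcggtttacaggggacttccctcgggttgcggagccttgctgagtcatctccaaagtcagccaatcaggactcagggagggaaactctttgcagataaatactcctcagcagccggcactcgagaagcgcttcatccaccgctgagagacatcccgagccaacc
Cxcl9: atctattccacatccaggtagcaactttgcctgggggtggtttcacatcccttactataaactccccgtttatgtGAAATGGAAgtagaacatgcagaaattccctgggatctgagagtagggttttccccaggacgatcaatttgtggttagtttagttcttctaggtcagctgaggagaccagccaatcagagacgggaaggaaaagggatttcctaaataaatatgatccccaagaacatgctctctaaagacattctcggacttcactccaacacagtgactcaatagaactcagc
Gbp2: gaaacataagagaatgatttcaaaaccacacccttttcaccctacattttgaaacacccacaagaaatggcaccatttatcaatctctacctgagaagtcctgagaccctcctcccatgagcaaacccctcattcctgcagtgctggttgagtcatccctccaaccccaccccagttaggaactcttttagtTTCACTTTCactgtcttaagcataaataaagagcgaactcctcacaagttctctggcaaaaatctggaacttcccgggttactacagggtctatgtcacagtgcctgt
Cd274: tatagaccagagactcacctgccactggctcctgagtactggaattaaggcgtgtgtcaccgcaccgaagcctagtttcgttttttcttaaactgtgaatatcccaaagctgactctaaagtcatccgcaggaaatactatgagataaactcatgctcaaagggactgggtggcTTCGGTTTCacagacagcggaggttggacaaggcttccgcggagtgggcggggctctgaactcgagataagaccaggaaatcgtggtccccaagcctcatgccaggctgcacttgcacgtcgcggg

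Genes induced by type I interferon were higher as well. Of 19 measured, 16 were at least 1.5-fold higher, 12 of them at least 2-fold, and 0 were at least 1.5-fold lower. The median log2 difference was 1.58 for CsA over Syngen and 2.40 for Allogen over Syngen. Ifit2, Ifit3 and Ifit1, which bind foreign RNA or block translation, were 5.61-fold higher, 4.58-fold higher and 4.42-fold higher. Ifit3 had signals of 1195 on CsA, 1696 on ABH4, 1983 on BH4, 1293 on NIL, 2471 on Allogen and 261 on Syngen, and NIL was the allograft closest to CsA. Bst2, which tethers budding virus to the cell surface, was 4.32-fold higher, with 319 on CsA, 467 to 849.8 on the other 4 allografts and 73.9 on Syngen.

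Among antigen presentation genes, the largest single-gene differences were in MHC class I and its peptide loading, while the immunoproteasome list had the higher median. Of 11 class I and peptide loading genes, 6 were at least 1.5-fold higher and none lower, with a median of 0.81. H2-K1 had signals of 4377 on CsA, 6215 on ABH4, 6931 on BH4, 6524 on NIL, 6938 on Allogen and 429 on Syngen and was 10.2-fold higher on CsA. Its 4 probe sets gave log2 differences of 1.35 to 4.24. H2-D1 was 12.3-fold higher, but its 9 probe sets gave log2 differences of -0.68 to 3.89. The H2 genes differ in sequence between mouse strains, the probe sets of H2-D1 differed in sign, and a level difference cannot be told apart from an allele difference for them. Tap1, a subunit of the peptide transporter, had signals of 744 on CsA, 1436 on ABH4, 1530.3 on BH4, 1344 on NIL, 1504 on Allogen and 140.0 on Syngen and was 5.31-fold higher. Its 4 probe sets gave log2 differences of 0.00 to 2.41. Tapbpl, a peptide editor, was 3.18-fold higher, with 171 on CsA, 440.4 to 498 on the other 4 allografts and 53.7 on Syngen, and its 2 probe sets gave log2 differences of 0.09 to 1.67. B2m, the light chain of class I, differed less, at 5699 on CsA, 6729 on ABH4, 6906 on BH4, 6531 on NIL, 6881 on Allogen and 4169 on Syngen, and was 1.37-fold higher on CsA.

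All 4 measured genes of the immunoproteasome, a complex that cuts peptides for class I, were at least 1.5-fold higher, with a median of 1.38. Psmb9 had signals of 747 on CsA, 2295 on ABH4, 2110.1 on BH4, 2317 on NIL, 2602 on Allogen and 214 on Syngen and was 3.49-fold higher on CsA than on Syngen, against 12.2-fold higher on Allogen than on Syngen. Psmb10 was 2.87-fold higher, Psmb8 2.37-fold higher and Psme1 1.89-fold higher on CsA. CsA was the lowest of the 5 allografts for each of these 4 genes. Of the 16 constitutive proteasome genes none was 1.5-fold higher or lower, and their median was 0.23.

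MHC class II genes, made by dendritic cells, macrophages and B cells and induced in other cells by interferon-gamma, had a median of 0.53 for CsA over Syngen, against 1.75 for Allogen over Syngen. Of 9 measured, 3 were at least 1.5-fold higher. H2-Aa had signals of 2766 on CsA, 5339 on ABH4, 4657 on BH4, 7203 on NIL, 6252 on Allogen and 1854 on Syngen, which put CsA and Syngen next to each other below the other 4 allografts. H2-DMa, which loads class II with peptide, was 2.05-fold higher, with 247 on CsA, 656 to 824 on the other 4 allografts and 120.4 on Syngen. H2-Oa, which opposes H2-DM, was 2.23-fold higher at low signal, with 90.1 on CsA, 63.2 to 128 on the other 4 allografts and 40.5 on Syngen.

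T cell genes on CsA were near the syngraft level, and some genes of cytotoxic cells were above it. Of 6 T cell markers, 3 were above the floor on CsA (Cd3g, Cd247 and Cd8a) and 0 on Syngen, against 5 on Allogen. Cd247 was barely above the floor, at 37.2 on CsA, and its probe sets differed in sign. The summed signal of the 6 markers was 274 on CsA, 1721 on Allogen and 209 on Syngen, where the Syngen value is that of 6 genes at the floor. Cd4 was at the floor on all 6 arrays. In such bulk RNA, fewer cells of a type and less RNA per cell cannot be told apart. Over 21 T cell genes the median was 0.00, with 8 members at the floor on both arrays, 3 at least 1.5-fold higher and 3 at least 1.5-fold lower.

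Cd3g, a chain of the T cell receptor complex, had signals of 63.2 on CsA, 563 on ABH4, 390.3 on BH4, 591 on NIL, 512 on Allogen and the floor value on Syngen and was at least 1.82-fold higher on CsA. Cd8a, the coreceptor of cytotoxic T cells, had signals of 68.8 on CsA, 310.0 on ABH4, 227 on BH4, 269 on NIL, 173 on Allogen and the floor value on Syngen and was at least 1.98-fold higher, while its other probe set differed by 0 on the log2 scale. Both were nearer the floor than the other allografts. Cd6, a T cell surface receptor, was 1.65-fold lower, at 58 on CsA, 119 to 228 on the other 4 allografts and 95.5 on Syngen. Ctla4, an inhibitory receptor induced on activation, had the floor value on CsA, 136 to 219.7 on the other 4 allografts and 52.5 on Syngen.

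Of 19 cytotoxic lymphocyte and NK genes, 9 were at least 1.5-fold higher, none lower, and the median was 0.56 against 2.34 for Allogen over Syngen. Gzmb, the protease that cytotoxic cells release into their targets, had signals of 346 on CsA, 3703 on ABH4, 2973 on BH4, 3358 on NIL, 3888 on Allogen and the floor value on Syngen. It was at least 9.94-fold higher on CsA than on Syngen and at the same time 11.2-fold lower on CsA than on Allogen, so that CsA stood apart from both sides. Klrd1, part of an NK receptor, was at least 2.49-fold higher, at 86.5 on CsA, 152 to 302 on the other 4 allografts and the floor value on Syngen. Nkg7, a protein of cytotoxic granules, was 2.35-fold higher, at 85.4 on CsA, 565 to 1026 on the other 4 allografts and 36.4 on Syngen. Gzma, which is made by the same cells, was 1.64-fold higher, with 98.4 on CsA, 761 to 1376 on the other 4 allografts and 59.8 on Syngen.

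**Figure D2:**
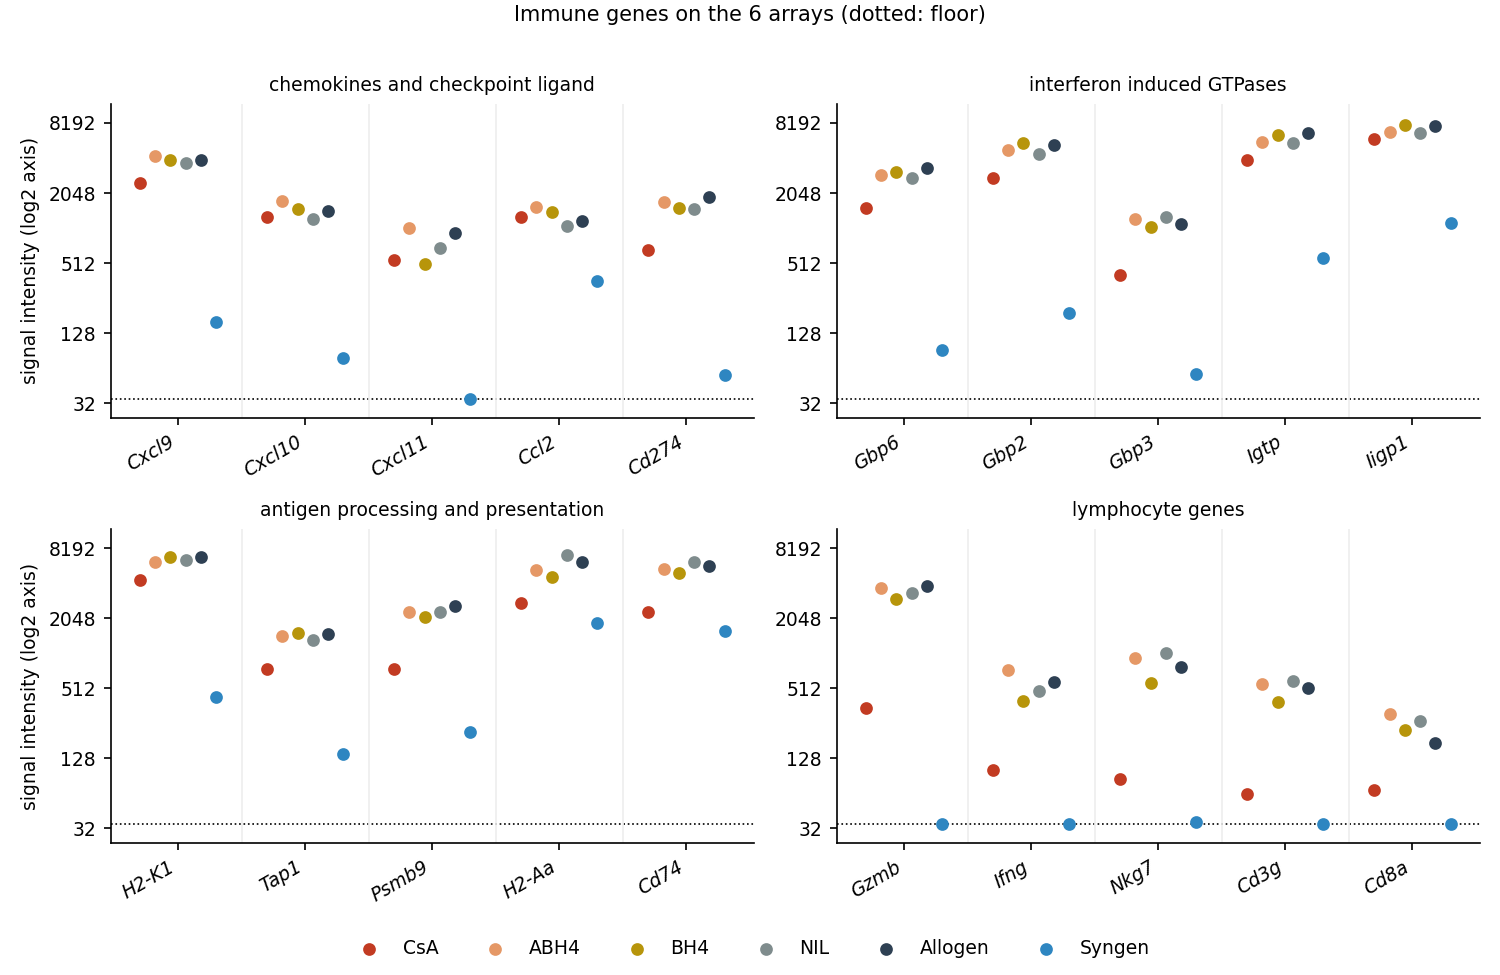
Rescaled signal intensity (log2 axis) of 20 immune genes on the 6 arrays, 1 point per array, CsA at the left and Syngen at the right of each gene; the dotted line is the floor of 34.8. CsA is close to the other allografts for Cxcl10, Ccl2 and Iigp1, close to Syngen for H2-Aa and Cd74, and between them for Gzmb and Psmb9.

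A set of 5 macrophage markers had similar sums on both arrays, and several genes of activated or repair macrophages were higher. The 5 markers were above the floor on both arrays and summed to 7411 on CsA, 7494 on Syngen and 7256 on Allogen. The longer list of 27 macrophage and monocyte genes summed to 19460 on CsA, 15981 on Syngen and 30952 on Allogen. The marker sum therefore does not show an equal amount of macrophages. Of 27 macrophage and monocyte genes, 7 were at least 1.5-fold higher and 1 at least 1.5-fold lower on CsA than on Syngen, and the median was 0.38. Arg1, which splits arginine and marks alternatively activated macrophages in mice, had signals of 324 on CsA, 1009 on ABH4, 1045 on BH4, 1094 on NIL, 864 on Allogen and the floor value on Syngen. It was at least 9.32-fold higher, with CsA below each of the other allografts. Lgals3, a galectin of phagocytes, was 3.28-fold higher, at 1944 on CsA, 2741 to 3064 on the other 4 allografts and 593 on Syngen. Chil3, a chitinase-like protein of mouse macrophages, was 3.15-fold higher, at 149 on CsA, 109.7 to 451 on the other 4 allografts and 47.2 on Syngen. Marco, a scavenger receptor, went the other way and was at least 3.37-fold lower, with the floor value on CsA, 88.6 on ABH4, 100.1 on BH4, the floor value on NIL, the floor value on Allogen and 117 on Syngen.

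Some chemokines that draw monocytes were higher and others were not. Of 30 chemokine and receptor genes, the Cxcr3 ligands Cxcl9, Cxcl10 and Cxcl11 included, 12 were at least 1.5-fold higher and 4 at least 1.5-fold lower on CsA than on Syngen, and the median was 0.32. Ccl7 had signals of 521 on CsA, 819 on ABH4, 649 on BH4, 471 on NIL, 606 on Allogen and 113 on Syngen and was 4.59-fold higher. Ccl2, which shares the receptor Ccr2 with Ccl7, had signals of 1276 on CsA, 1544 on ABH4, 1414 on BH4, 1066 on NIL, 1186 on Allogen and 360.1 on Syngen and was 3.54-fold higher. For both, CsA was within the range of the other allografts. Ccl8, a chemokine related to Ccl2 and Ccl7, was alike on CsA and Syngen, with 1755 on CsA, 5296 on ABH4, 4885 on BH4, 5258 on NIL, 4984 on Allogen and 1709 on Syngen. Cxcl14 was the largest difference the other way, 2.43-fold lower, at 143 on CsA, 53.4 to 146 on the other 4 allografts and 347 on Syngen.

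Il15, a survival factor of NK and memory T cells, was 3.4-fold higher, with 151 on CsA, 191 on ABH4, 133 on BH4, 126 on NIL, 138 on Allogen and 44.4 on Syngen. Il1rn, the antagonist of interleukin-1, was 3.25-fold higher, with 247 on CsA, 484 on ABH4, 418 on BH4, 441 on NIL, 656 on Allogen and 75.9 on Syngen. Its 3 probe sets gave log2 differences of 0.06 to 1.70. CsA was second only to ABH4 among the 6 arrays for Il15, and the lowest allograft for Il1rn. Over all 24 cytokine genes measured, 4 were at least 1.5-fold higher and 1 at least 1.5-fold lower, with a median of 0.00.

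Adhesion molecules that bind leukocytes were mixed. Icam1 had signals of 443 on CsA, 509 on ABH4, 515 on BH4, 554 on NIL, 479 on Allogen and 178 on Syngen and was 2.49-fold higher, and Vcam1 was 2.03-fold higher, at 484 on CsA, 409.6 to 724 on the other 4 allografts and 239 on Syngen. The 3 probe sets gave log2 differences of 1.02 to 2.88 for Vcam1. Selp, the selectin that slows rolling leukocytes, was 2.28-fold lower, at 45.6 on CsA, 74.6 to 125 on the other 4 allografts and 104 on Syngen, with CsA the lowest of the 6 arrays. Its 2 probe sets gave log2 differences of -1.19 to -0.33. The 17 adhesion genes had a median of 0.02. In complement, C2 was at least 2.65-fold higher and Cfb, the alternative pathway protease, 2.05-fold higher, at 268 on CsA, 991 to 1446 on the other 4 allografts and 131 on Syngen. The complement median was 0.16 over 13 genes. Of 11 dendritic cell genes, Cd40, the receptor for T cell help, was the one at least 1.5-fold higher, at 142 on CsA, 231 to 273 on the other 4 allografts and 73.8 on Syngen, and none was 1.5-fold lower.

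Several immunoglobulin genes were above the syngraft on CsA, while the B cell and plasma cell list went both ways. Of 9 genes of that list, 2 were at least 1.5-fold higher, Jchain and Igk, and 2 at least 1.5-fold lower, Blk and Ighm, with a median of -0.11. Blk, a kinase of B cell receptor signalling, was 2.08-fold lower, with 41.8 on CsA, the floor value to 48.8 on the other 4 allografts and 87 on Syngen. Igha, the constant region of the IgA heavy chain, had signals of 3700.1 on CsA, 5725 on ABH4, 1890.4 on BH4, 4199 on NIL, 1809.7 on Allogen and 454 on Syngen and was 8.15-fold higher on CsA. Its 3 probe sets gave log2 differences of 1.99 to 3.03. Jchain, which joins IgA and IgM into polymers, had signals of 1313 on CsA, 1840.2 on ABH4, 473 on BH4, 1649 on NIL, 534 on Allogen and 225 on Syngen and was 5.83-fold higher. The kappa variable gene Igkv8-30 was 5.25-fold higher, with 917 on CsA, 987 on ABH4, 387 on BH4, 928 on NIL, 423 on Allogen and 175 on Syngen. For all 3, ABH4 was the highest array, then NIL and then CsA, with BH4 and Allogen below them and Syngen lowest. Iglv1 was at least 3.4-fold higher by its brighter probe set, and the other differed by 0 on the log2 scale. Igk was at least 3.86-fold higher by its brightest probe set, but its 4 probe sets gave log2 differences of -0.14 to 1.95, and the 11 probe sets of Ighm ranged between -0.61 and 1.90. The 3 B cell markers measured summed to 162 on CsA and 170 on Syngen.

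Acute phase and neutrophil genes made up 4 of the 12 largest differences below the syngraft. Saa3, a serum amyloid A made by macrophages and fat cells in inflammation, had signals of 120.3 on CsA, 3669 on ABH4, 2576 on BH4, 2191 on NIL, 2476 on Allogen and 1538 on Syngen. It was 12.8-fold lower on CsA than on Syngen while Allogen was 1.61-fold higher. Hp, the haemoglobin-binding protein haptoglobin, had signals of 104 on CsA, 937 on ABH4, 601 on BH4, 229 on NIL, 417 on Allogen and 1007 on Syngen and was 9.71-fold lower. For both genes CsA was apart from all 5 other arrays. S100a8 and S100a9 form calprotectin, the main cytosolic protein of neutrophils. S100a8 had signals of 106 on CsA, 523 on ABH4, 408 on BH4, 340.4 on NIL, 383 on Allogen and 607 on Syngen and was 5.75-fold lower. S100a9 had signals of 84.3 on CsA, 229.8 on ABH4, 177 on BH4, 204 on NIL, 205 on Allogen and 462 on Syngen and was 5.48-fold lower. CsA was the lowest array and Syngen the highest for each. Mmp9, a gelatinase stored in neutrophil granules, was 2.57-fold lower, at 135 on CsA, 59.8 to 109 on the other 4 allografts and 346 on Syngen, and its 2 probe sets gave log2 differences of -2.61 to -1.36.

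Within the whole list of 18 such genes, 1 was at least 1.5-fold higher, 6 were at least 1.5-fold lower, 4 were at the floor on both, and the median was -0.35. The 3 neutrophil markers measured (S100a8 and S100a9 among them) summed to 269 on CsA and 1176 on Syngen. The whole list did not go one way. Ltf, lactoferrin of neutrophils and glands, was at least 2.38-fold higher, with 82.6 on CsA, 51.7 on ABH4, 274 on BH4, 133 on NIL, 42.1 on Allogen and the floor value on Syngen. Gland and epithelial markers are on the same arrays: Krt18 was at least 4.66-fold higher, with 162 on CsA, 102 to 263 on the other 4 allografts and the floor value on Syngen, while Bpifa2, a salivary protein, had the floor value on CsA, the floor value on ABH4, 5806 on BH4, 56.2 on NIL, the floor value on Allogen and 40.7 on Syngen. BH4 was the highest array for Bpifa2, Krt18 and Ltf. The part of glandular cells in the Ltf value was not tested.

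Genes of the response to oxidants and misfolded proteins were partly above the syngraft. Of 25 oxidative stress genes, 8 were at least 1.5-fold higher and 1 at least 1.5-fold lower on CsA than on Syngen, with a median of 0.37. Xdh, which makes uric acid and releases oxidants, had signals of 334 on CsA, 888 on ABH4, 1002 on BH4, 657 on NIL, 908 on Allogen and 39 on Syngen and was 8.56-fold higher. Gsta4, a glutathione transferase for lipid aldehydes, had signals of 1104 on CsA, 919 on ABH4, 1363 on BH4, 619 on NIL, 1152 on Allogen and 260.2 on Syngen and was 4.24-fold higher, within the range of the other allografts. Gclm, a subunit of the enzyme that begins glutathione synthesis, was 3.77-fold higher, at 554 on CsA, 649 to 1194 on the other 4 allografts and 147 on Syngen. Gpx3, the extracellular glutathione peroxidase, was in the opposite direction, 6.58-fold lower, with 840.5 on CsA, 411 on ABH4, 669 on BH4, 276 on NIL, 726 on Allogen and 5527 on Syngen. All 5 allografts were far below the syngraft for it.

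Hspa1b, an inducible HSP70 chaperone, had signals of 1168 on CsA, 680.1 on ABH4, 437 on BH4, 396 on NIL, 756 on Allogen and 158 on Syngen and was 7.39-fold higher. CsA was the highest of the 6 arrays. Hspa1a, the neighbouring HSP70 gene of nearly the same sequence, had signals of 425 on CsA, 208 on ABH4, 154 on BH4, 111 on NIL, 224 on Allogen and 104 on Syngen. The 2 genes can share probe signal. Hsph1 and Dnajb1, partners of HSP70, were 2.69-fold higher and 1.9-fold higher. Of 14 chaperone genes, 5 were at least 1.5-fold higher, none lower, and the median was 0.23. Genes of endoplasmic reticulum stress had 3 of 18 members at least 1.5-fold higher and none lower, with a median of 0.38; Asns was 1.69-fold higher. Among 19 immediate early genes, 4 were at least 1.5-fold higher and none lower. Myc was 2.7-fold higher, with 228 on CsA, 270.3 on ABH4, 196 on BH4, 195 on NIL, 284 on Allogen and 84.6 on Syngen, and Fos 1.83-fold higher.

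Pdk4, the kinase that shuts pyruvate out of the citrate cycle and responds to glucocorticoids and fasting, was 2.23-fold higher, with 456 on CsA, 862 on ABH4, 1183 on BH4, 1149 on NIL, 1398 on Allogen and 205 on Syngen. It was the only one of 25 fatty acid oxidation genes at least 1.5-fold higher, and 1 was at least 1.5-fold lower. Of 15 glucocorticoid responsive genes, 4 were at least 1.5-fold higher and none lower. Klf9, a glucocorticoid-induced transcription factor, was 1.89-fold higher, but its 7 probe sets differed in sign. In nitric oxide and pteridine metabolism, Nos2, the inducible synthase, was at the floor on CsA and on Syngen and had 54.7 to 88 on the other 4 allografts. Gch1, which begins tetrahydrobiopterin synthesis, was 1.87-fold higher, with 185 on CsA, 263 on ABH4, 256 on BH4, 249 on NIL, 279 on Allogen and 99.2 on Syngen. Nos3, the endothelial synthase, was 1.17-fold lower. Of 15 genes of this group, 2 were at least 1.5-fold higher, Arg1 and Gch1, and none lower.

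Matrix and fibroblast genes, which were far below the syngraft on the untreated allograft, were close to it on CsA. The median log2 difference of 17 collagens was -0.23 for CsA over Syngen and -2.62 for Allogen over Syngen. For 34 matricellular proteins and proteoglycans the medians were -0.19 and -1.79, and for 21 fibroblast genes outside the matrix -0.18 and -1.94. Col1a1, the main fibrillar collagen, had signals of 4708 on CsA, 1513 on ABH4, 3877 on BH4, 626 on NIL, 680.3 on Allogen and 5537 on Syngen, and Postn, a matricellular protein of activated fibroblasts, 3019 on CsA, 506 on ABH4, 1612 on BH4, 231 on NIL, 219 on Allogen and 3142 on Syngen. BH4 was the highest of the other allografts for both, and its Postn signal lay well below that of CsA and Syngen. The 2 probe sets gave log2 differences of -1.03 to -0.23 for Col1a1, so that its dimmer probe set was over 2-fold lower on CsA. The 7 fibroblast markers summed to 21809 on CsA, 4852 on Allogen and 25268 on Syngen.

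Some matrix genes differed more. Col11a1, a minor fibrillar collagen, was 2.31-fold lower, at 63.2 on CsA, the floor value to 64.6 on the other 4 allografts and 146 on Syngen, but its other probe set differed by 0 on the log2 scale. Sparcl1, Mfap4 and Thbs2 were each 1.96-fold lower, just under the 2-fold threshold. Tnc, tenascin C of wounds, was 1.88-fold higher, at 967 on CsA, 238 to 659 on the other 4 allografts and 514 on Syngen, with CsA the highest of the 6 arrays. Pi16, a marker of adventitial fibroblasts, was 3.47-fold lower, with 149.8 on CsA, the floor value on ABH4, 36.8 on BH4, the floor value on NIL, 38.2 on Allogen and 519.9 on Syngen. Its 2 probe sets gave log2 differences of -1.80 to -0.37. Mmp3 was 2.91-fold lower and P4ha2, a collagen prolyl hydroxylase, 2.6-fold lower, at 164 on CsA, 191 to 199 on the other 4 allografts and 427 on Syngen. Of 25 matrix proteases, inhibitors and crosslinkers, 1 was at least 1.5-fold higher and 3 at least 1.5-fold lower. Mmp12, the macrophage elastase, was 2.37-fold higher, with 146 on CsA, the floor value on ABH4, 114 on BH4, 46.9 on NIL, 43.4 on Allogen and 61.4 on Syngen.

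Muscle and vessel genes were slightly lower in the middle of their lists. Smooth muscle genes had a median of -0.23 over 16, with 5 at least 1.5-fold lower (31.25%) and 1 higher (6.25%). Of all genes, 5.84% were at least 1.5-fold lower and 6.83% higher. Synpo2, an actin bundler, was 2.41-fold lower, at 468 on CsA, 205 to 366 on the other 4 allografts and 1127 on Syngen, and Myl9, the regulatory myosin light chain, 2.15-fold lower, at 210.0 on CsA, 75.7 to 244 on the other 4 allografts and 451 on Syngen. Cnn1, calponin of contractile smooth muscle, was at the floor on all 5 allografts and at 96.1 on Syngen. Of 24 endothelial genes, 3 were at least 1.5-fold lower (12.5%) and none higher, with a median of -0.24. Whether these small counts differ from the shares over all genes was not tested. Sox18, an endothelial transcription factor, was 1.8-fold lower, at 324 on CsA, 178 to 263 on the other 4 allografts and 584 on Syngen. Aplnr, the apelin receptor, was 1.59-fold lower on CsA and 13.7-fold lower on Allogen than on Syngen, with 469.8 on CsA, 46.6 on ABH4, 49.4 on BH4, the floor value on NIL, 54.8 on Allogen and 749 on Syngen. Rbp7, a retinoid carrier of microvascular endothelium, was 4.02-fold lower, with 75.2 on CsA, 36.9 on ABH4, the floor value on BH4, the floor value on NIL, the floor value on Allogen and 302 on Syngen.

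**Figure D3:**
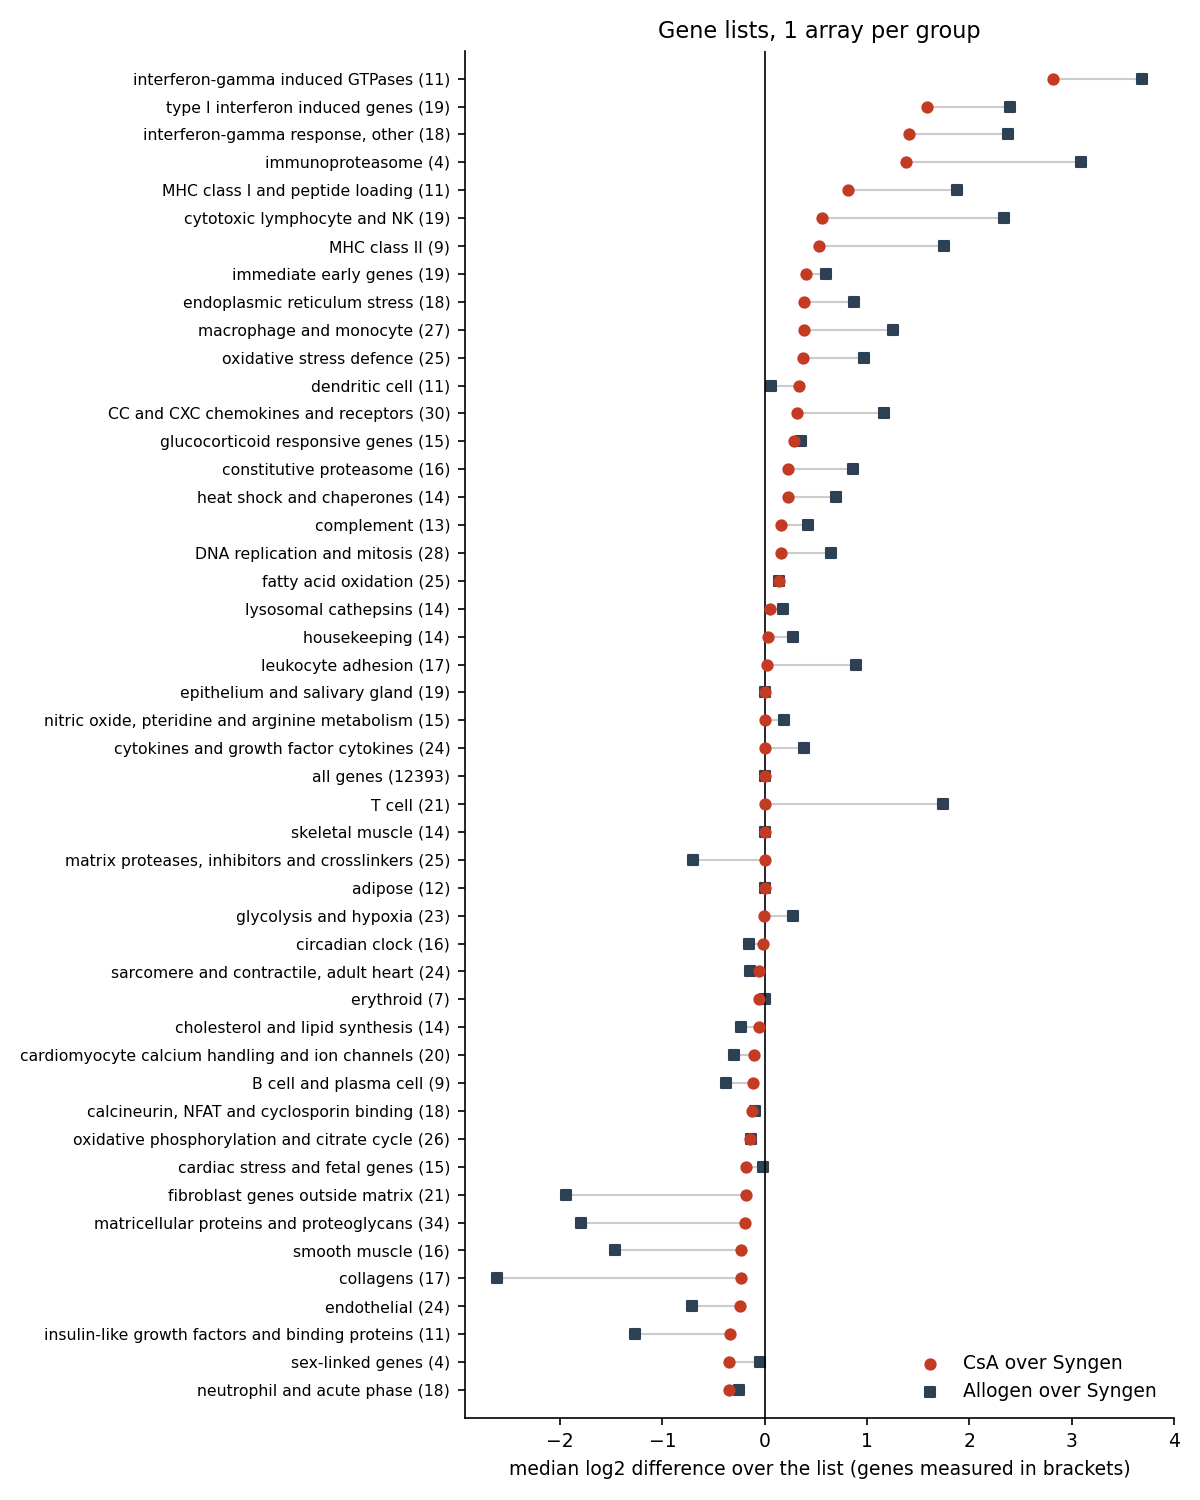
Median log2 difference of each gene list for CsA over Syngen (circles) and Allogen over Syngen (squares), with the number of measured genes in brackets; both use the same Syngen array. The interferon-gamma induced GTPases have the highest CsA median (2.82), and the collagen medians are -0.23 for CsA over Syngen and -2.62 for Allogen over Syngen.

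Heart muscle differed little. Of 24 sarcomere genes, 1, Tcap, was at least 1.5-fold lower and none higher, with a median of -0.06. None of the 26 respiratory chain and citrate cycle genes was 1.5-fold higher or lower. Myh6, the adult myosin heavy chain, had signals of 4339 on CsA, 3161 on ABH4, 3236 on BH4, 3363 on NIL, 3578 on Allogen and 3340.5 on Syngen, and its 2 probe sets differed in sign. Nppa, atrial natriuretic peptide, had signals of 8360.3 on CsA, 7143 on ABH4, 8369.9 on BH4, 8001 on NIL, 8594 on Allogen and 9483 on Syngen.

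Genes of stress, fetal or skeletal muscle programmes differed in both directions. Acta1, skeletal alpha-actin, which the fetal and the stressed heart also make, had signals of 1986 on CsA, 1298 on ABH4, 1612 on BH4, 1306 on NIL, 1389.8 on Allogen and 5742 on Syngen and was 2.89-fold lower on CsA. Myl1, a fast muscle myosin light chain, had signals of 312 on CsA, 596 on ABH4, 812 on BH4, 469.7 on NIL, 662 on Allogen and 2024 on Syngen and was 6.48-fold lower, with CsA the lowest array. Among 6 skeletal muscle markers, Acta1 was the one above the floor on Syngen, and Myh1, Myh2, Myh4, Tnnt3 and Tnni2 were at the floor there. On CsA 3 of the 6 were above the floor, and Myh1, Myh4 and Tnni2 were at it. Myh2 and Tnnt3 thus went the opposite way to Acta1. Ankrd2, a stretch-responsive protein of the sarcomere, was at least 4.02-fold lower, with the floor value on CsA, 45.9 on ABH4, 78.5 on BH4, the floor value on NIL, 132 on Allogen and 139.7 on Syngen, so that Allogen was close to Syngen. Uchl1, a ubiquitin hydrolase, was 3.17-fold higher, with 490.4 on CsA, 436 on ABH4, 499.8 on BH4, 289 on NIL, 400.2 on Allogen and 155 on Syngen.

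Genes of the drug's own pathway had a small median difference. Over 18 measured genes of calcineurin, NFAT and cyclosporin binding the median was -0.12. On CsA 0 of them were at least 1.5-fold higher than on Syngen, against 6.83% of all genes. At least 1.5-fold lower were 2 (11.1%), against 5.84% of all genes, and counts this small do not set the list apart. The catalytic subunits Ppp3ca and Ppp3cb had log2 differences of -0.12 and -0.38, the regulatory subunit Ppp3r1 -0.12, and Nfatc1 -0.27; all of these except Ppp3r1 had probe sets of opposite sign. Rcan1, a calcineurin inhibitor that NFAT induces, had signals of 1383 on CsA, 1169.7 on ABH4, 1112 on BH4, 1211 on NIL, 1428 on Allogen and 1914 on Syngen and was 1.38-fold lower, with CsA inside the range of the allografts. Nfatc4 was 2.63-fold lower and Nfatc2 1.86-fold lower, but their probe sets also differed in sign.

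The genes at least 2-fold different fell into classes by where Allogen lay. Retained differences, with Allogen at least 2-fold from Syngen in the same direction, made up 195 of the 282 higher and 90 of the 176 lower genes. In another 35 higher and 34 lower genes Allogen lay 1.5 to 2-fold from Syngen the same way. Differences on the CsA side only, with Allogen within 1.5-fold of Syngen, numbered 49 higher and 46 lower. Past the syngraft, with Allogen at least 1.5-fold to the other side, were 3 higher and 6 lower genes. Retained genes were also split by the distance of CsA from Allogen. Of the 195 higher, CsA lay at least 1.5-fold nearer the syngraft than Allogen in 111, within 1.5-fold of Allogen in 78 and further out in 6. Of the 90 lower, the counts were 14, 73 and 3. A lower gene at the floor on both CsA and Allogen, such as Cnn1, falls within 1.5-fold by the floor alone. Of the 176 lower genes, 66 were at the floor on CsA. The split of the higher and of the lower genes therefore cannot be compared, and it was not recomputed at other floors. The class counts moved with the floor. With it at the 50th percentile the past-the-syngraft class held 3 higher and 2 lower genes. The CsA side only class then held 8 and 9, and the retained class 124 and 35.

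**Figure D4:**
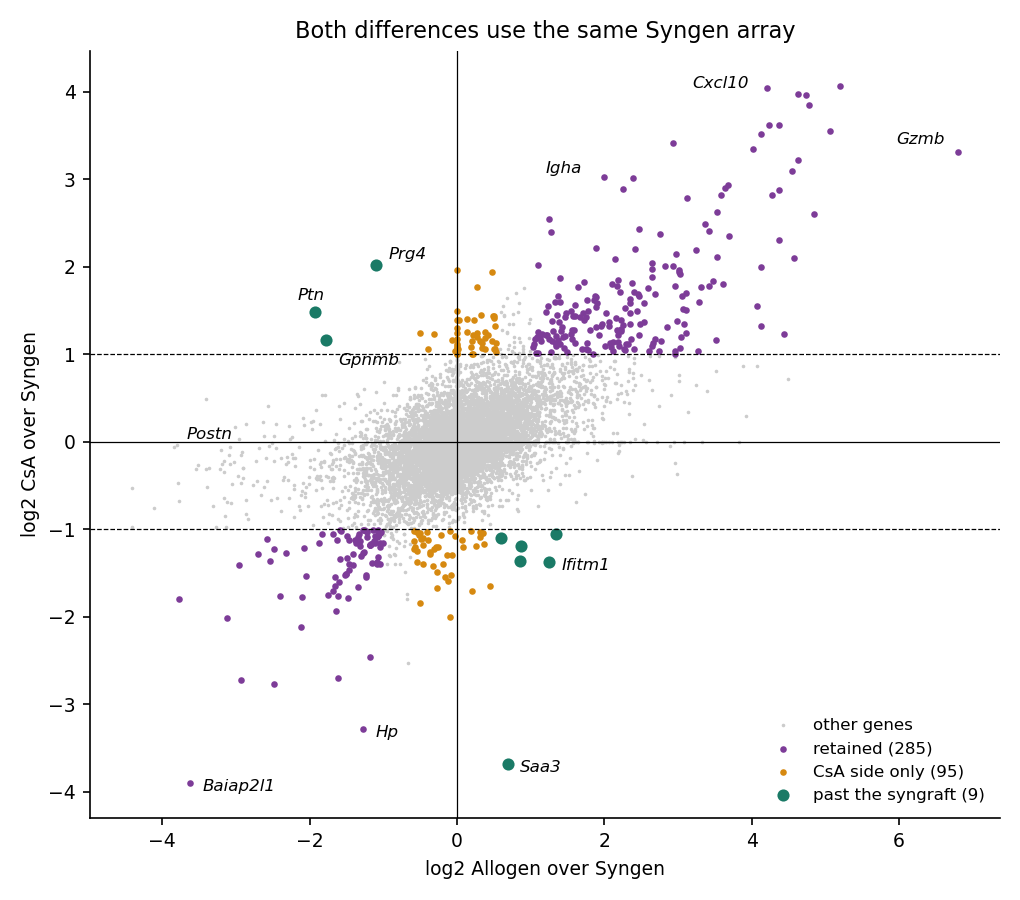
Log2 CsA over Syngen (vertical axis) against log2 Allogen over Syngen (horizontal axis) for 12393 genes, coloured by class; dashed lines mark 2-fold, and both axes use the same Syngen array. The past-the-syngraft genes, such as Prg4 and Saa3, lie in the quadrants of opposite sign, and Postn lies near 0 on the vertical axis.

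The 3 genes past the syngraft on the high side encode secreted or surface proteins. Prg4, the lubricating glycoprotein lubricin, had signals of 892 on CsA, 298 on ABH4, 470.1 on BH4, 154 on NIL, 103 on Allogen and 219.7 on Syngen. It was 4.06-fold higher on CsA than on Syngen, while Allogen was 2.14-fold lower than Syngen. Ptn, the heparin-binding growth factor pleiotrophin, had signals of 370.3 on CsA, 39.1 on ABH4, 141 on BH4, the floor value on NIL, the floor value on Allogen and 132 on Syngen and was 2.8-fold higher on CsA. Both were highest on CsA of the 6 arrays. Gpnmb, a transmembrane glycoprotein of lipid-laden and repair macrophages, had signals of 332 on CsA, 108 on ABH4, 535 on BH4, 153 on NIL, 43.3 on Allogen and 148 on Syngen and was 2.24-fold higher, with BH4 higher than CsA.

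On the low side past the syngraft were Saa3, described above, Ifitm1, Ubac2, Zbtb7b, Sema3f and 5031439G07Rik. Ifitm1, an interferon-induced membrane protein, had signals of 109.8 on CsA, 906 on ABH4, 580.4 on BH4, 809.9 on NIL, 673 on Allogen and 284 on Syngen and was 2.59-fold lower on CsA, against 2.37-fold higher on Allogen than on Syngen. That direction is the reverse of the type I interferon list, of which none of the measured members was 1.5-fold lower. Zbtb7b, a transcription factor of helper T cell commitment, had signals of 64 on CsA, 264 on ABH4, 271 on BH4, 292 on NIL, 267 on Allogen and 145 on Syngen and was 2.27-fold lower. Its 2 probe sets gave log2 differences of -1.19 to -0.09. Sema3f, a guidance cue, was at least 2.14-fold lower, at the floor value on CsA, 86.5 to 113 on the other 4 allografts and 74.4 on Syngen, and its 2 probe sets gave log2 differences of -1.10 to -0.16. Ubac2, a protein of the endoplasmic reticulum, was 2.56-fold lower, at 40.9 on CsA, 175 to 230.0 on the other 4 allografts and 105 on Syngen, but its 2 probe sets gave log2 differences of -1.36 and 0.04.

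Departures of CsA from all of the other 5 arrays were looked for. The same 2-fold count was not made for any other array, so these counts do not set CsA apart from single-array outliers. Of all 12393 genes, 5 were at least 2-fold above all other arrays on CsA, namely Apoh, H1f10, Numbl, Ptn and Sorcs2. H1f10, a linker histone, had 136 on CsA and the floor value on the other 5 arrays. Apoh, a plasma phospholipid-binding protein, and Sorcs2, a sorting receptor, were likewise above the floor on CsA alone, at 74.3 and 73.3. Numbl, an adaptor of Notch signalling, had signals of 168 on CsA, 78.3 on ABH4, 83.1 on BH4, 64.8 on NIL, 77.2 on Allogen and 61.4 on Syngen. Below all other arrays by at least 2-fold were 17 genes, among them Saa3, Hp, S100a8, S100a9 and Ifitm1. The others included Acp5, the acid phosphatase of osteoclasts and macrophages, at 47.2 on CsA, 98.4 to 142 on the other 4 allografts and 158 on Syngen. Cbx1, a heterochromatin protein, was at 71.8 on CsA, 147 to 192 on the other 4 allografts and 165 on Syngen, and Myof, a membrane repair protein, at 78 on CsA, 198 to 355 on the other 4 allografts and 159 on Syngen, though probe sets of both differed in sign. Carns1, carnosine synthase of muscle, was at the floor value on CsA, 106 to 149 on the other 4 allografts and 109 on Syngen. Adck1 was at the floor value on CsA, 75.6 to 130.3 on the other 4 allografts and 113 on Syngen. Mcoln2, an ion channel of endosomes, was at the floor value on CsA, 71.2 to 77.6 on the other 4 allografts and 85.1 on Syngen, and Riok2, a kinase of ribosome assembly, at the floor value on CsA, 101 to 116 on the other 4 allografts and 78.3 on Syngen, with Riok2 probe sets of opposite sign. Ocel1 was at 51.9 on CsA, 116 to 144 on the other 4 allografts and 157 on Syngen. On CsA, 6 of the 17 were at the floor.

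**Figure D5:**
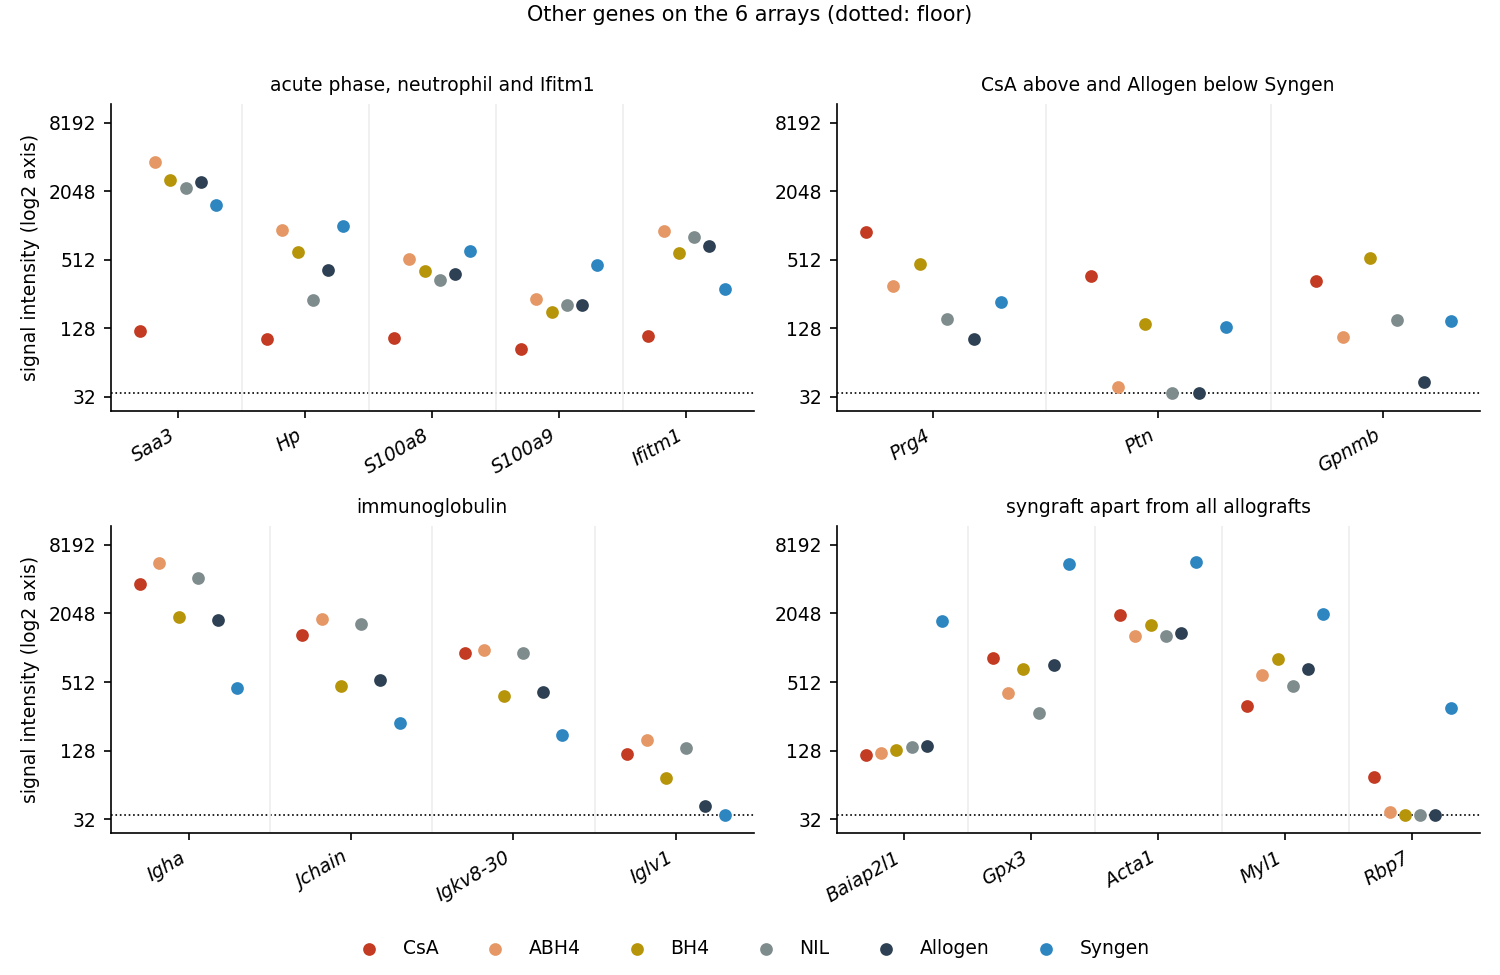
Rescaled signal intensity (log2 axis) of 17 genes on the 6 arrays, 1 point per array, CsA at the left and Syngen at the right of each gene; the dotted line is the floor of 34.8. CsA is the lowest array for Saa3, Hp, S100a8, S100a9 and Ifitm1, Prg4 and Ptn are highest on CsA, and Syngen is apart from all 5 allografts for Baiap2l1 and Gpx3.

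Part of the difference separated the syngraft from every allograft, treated or not. Syngen lay at least 1.5-fold outside the range of all 5 allografts in 205 of the 282 higher and 87 of the 176 lower genes. In a grouping added after the values were seen, the 5 allografts lay within 1.5-fold of each other in 43 of the higher and 52 of the lower genes, and in 18 of those 52 no allograft was at the floor. All these genes were picked by a difference between CsA, itself among the 5 allografts, and the same Syngen array. That choice raises both kinds of count, and the shares over all genes were not computed, so the counts are a description only. Baiap2l1, a membrane-bending actin regulator, had the largest difference among the lower ones, with 117 on CsA, 123 on ABH4, 130.0 on BH4, 137 on NIL, 141 on Allogen and 1743 on Syngen. It was 14.9-fold lower on CsA, and its 2 probe sets gave log2 differences of -3.90 and -3.53. Kcnj14, a potassium channel, was 6.79-fold lower, with 35.2 on CsA, the floor value on ABH4, the floor value on BH4, the floor value on NIL, 42.7 on Allogen and 239 on Syngen. Lin7c, a scaffold of cell junctions, was at least 5.42-fold higher, with 188 on CsA, 163 on ABH4, 153 on BH4, 133 on NIL, 192 on Allogen and the floor value on Syngen. Eno2, neuron-specific enolase, was 3.26-fold lower, with 36.2 on CsA, the floor value to 38.8 on the other 4 allografts and 118 on Syngen, and Sspn, a muscle membrane protein, 3.09-fold higher, with 749 on CsA, 642 to 886 on the other 4 allografts and 243 on Syngen. The 2 probe sets gave log2 differences of 0.12 to 1.63 for Sspn and the 4 probe sets gave log2 differences of 0.98 to 2.44 for Lin7c. For genes that are alike in all allografts, strain and alloimmunity cannot be told apart. Genes with a wider spread among the allografts were also far from the syngraft. Rpgrip1, a protein of the photoreceptor cilium, was 10.7-fold higher, with 419 on CsA, 262 on ABH4, 284 on BH4, 239.6 on NIL, 298 on Allogen and 39.2 on Syngen, though the lowest of its 4 probe sets differed by 0 on the log2 scale. Rps4l, a ribosomal protein gene, was at least 8.11-fold higher, with 282 on CsA, 175 on ABH4, 193 on BH4, 133 on NIL, 182 on Allogen and the floor value on Syngen. Tubb3, a tubulin, was at least 7.48-fold higher, with 260.2 on CsA, 343 to 530.1 on the other 4 allografts and the floor value on Syngen. Creb3l3, a transcription factor of liver and gut, was at least 4.32-fold lower, with the floor value on CsA, the floor value on ABH4, 137 on BH4, 139 on NIL, the floor value on Allogen and 150.3 on Syngen, and did not separate the syngraft from BH4 and NIL.

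Over the 47 gene lists, 80 of the 282 higher and 22 of the 176 lower genes belonged to any list. The lists covered 781 of the 12393 genes and were chosen with earlier results of these data known. Of all genes, 2.28% were at least 2-fold higher and 1.42% at least 2-fold lower. The lists of interferon response and antigen presentation held 44 of the higher genes among 70 measured, and none of the lower genes. The lists without a member at least 1.5-fold higher or lower were the constitutive proteasome, oxidative phosphorylation, erythroid and housekeeping lists. Of 19 epithelial and gland genes 4 were at least 1.5-fold higher and none lower, among them Upk3b of mesothelium, at least 2.09-fold higher by the brighter of its 2 probe sets, the other differing by 0 on the log2 scale. The adipose list had 1 higher, Lipe, and the calcium handling list 1, Kcnj5, with none lower in either. The cardiac stress list had 2 higher and 3 lower of 15, and the skeletal muscle list 1 higher and 2 lower of 14. The sex-linked list had 1 higher, Kdm5d, and 1 lower, Xist. Of 28 replication and mitosis genes, 3 were at least 1.5-fold higher and none lower. For insulin-like growth factors and their binding proteins 2 of 11 were at least 1.5-fold lower, Igfbp5 and Igfbp4, and none higher. The glycolysis list had 2 lower, Eno3 and Slc2a4, and the cholesterol list 2 lower and 1 higher of 14. The circadian list had 2 higher and 2 lower of 16, with Dbp 1.91-fold lower. Of 14 cathepsins, Ctsh was the one at least 1.5-fold higher. Bpifa2, Ccl2, Ccl8, Col1a1, Ctla4, Cxcl14, Cxcr3, Eno2, Gzma, Igkv8-30, Iigp1, Irf1, Lin7c, Nos3, Socs1 and Sspn were chosen for description after their values were seen.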

How the data were processed

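RNA of mouse heart grafts was measured on 6 Affymetrix arrays, 1 array per group. The authors deposited linear signal intensities for 22690 probe sets per array; their mean after trimming 2% at each end was 200.07 on every array, so they had been scaled before deposit. Scanner software and background correction are not given in the sources used here. A factor per array brought the median of the 22626 probe sets that are not among the 64 controls to the average of the 6 array medians (log2 shifts of -0.09 to 0.10). Signals under the 30th percentile of all values (34.8) were set to it, including 3 at or below 0, and log2 was taken. A gene took its brightest single-gene probe set, so that 20380 probe sets became 12393 genes. Left out were 691 that list several genes and 1555 that list none. Gene names came from the platform annotation, and updating them through gene IDs changed 0 symbols.

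No test was possible with 1 array per group. Genes were counted at 2-fold and 1.5-fold, and described by 47 gene lists, of whose 871 genes 781 were measured. Named were the 12 largest differences in each direction above the floor on both arrays, the 6 largest bounds, 4 genes per list, 8 per class, genes on CsA at least 2-fold outside all other arrays, and a fixed set of graft and calcineurin genes. Genes outside these rules were chosen after their values were seen. The members and lists were chosen with earlier results of these data known. Alternatives were no rescaling, quantile normalization, floors at the 10th and 50th percentile, the mean over probe sets, and a filter on genes above the floor. Python 3.11.15, numpy 2.4.6, pandas 2.3.3 and matplotlib 3.10.9 were used.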

Additional observations from a re-analysis of the deposited data

Results flagged for a closer look

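Probe sets that name several genes or none entered no comparison, yet some differed at least 2-fold between CsA and Syngen. Among those listed for several genes 24 were higher and 10 lower on CsA, and among those without a gene 30 were higher and 20 lower. The several-gene probe set listed for Gm3776, Gsta2 and Gsta1 had 465 on CsA and 45.3 on Syngen, that for H2-Q6 and H2-Q8 had 685 on CsA and 92.8 on Syngen, and that for Tgtp2 and Tgtp1 had 2120.1 on CsA and 392 on Syngen. Which of the listed genes a signal came from was not tested.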

How the results depend on the processing

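Counts depended mainly on the background floor. With the floor at the 10th percentile the 2-fold counts were 811 higher and 699 lower, retained differences numbered 471 higher and 380 lower, CsA side only 213 and 180, and past the syngraft 32 and 31. With the floor at the 50th percentile, 143 were higher and 56 lower, retained 124 and 35, CsA side only 8 and 9, and past the syngraft lower 2. When a gene's probe sets were averaged, 3 genes were past the syngraft on the low side. The other 32 recomputed counts stayed within 1.5 times. Of these, 8 came from the filter on genes above the floor on CsA or Syngen. That filter could not change a count, because a gene at the floor on both arrays has no difference. Rescaling shifted CsA by -0.0862 and Syngen by -0.0878 on the log2 scale, so leaving it out could hardly change the 2-fold counts. Of the single-gene values, 1276 stayed within 0.585 of the main value on the log2 scale, 108 moved further, and Ighm changed sign, to 0.24, when its probe sets were averaged. The 1276 include 230 from the same filter, which leaves a gene's value unchanged. None of the 282 recomputed list medians moved by 0.585 or more. No paired analysis was possible because each group had 1 array. Single arrays limit every value here, and low signals near the floor limit the classes.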

Other observations

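Xist, which marks the inactive X chromosome, had signals of 66 on CsA, 68.5 on ABH4, 68.2 on BH4, 76.2 on NIL, 63.2 on Allogen and 117 on Syngen, and the Y-linked genes Kdm5d, Uty and Eif2s3y had 80.8 on CsA against 44.8 on Syngen, 81.5 on CsA against 108 on Syngen and 112 on CsA against 136 on Syngen. The probe sets of Xist and Kdm5d each included one with a log2 difference of 0. Mast cell protease genes differed in direction: Cpa3, carboxypeptidase of mast cells, was at least 2.65-fold higher, with 92 on CsA, 47.7 on ABH4, 59.5 on BH4, 65 on NIL, 38.2 on Allogen and the floor value on Syngen, and Mcpt2 was 2.53-fold lower, with 41.3 on CsA, 41.3 on ABH4, 38.6 on BH4, the floor value on NIL, the floor value on Allogen and 104 on Syngen. Both lay near the floor and were chosen after their values were seen. Nnmt, which methylates nicotinamide, was 2.63-fold higher, with 146 on CsA, 89.5 on ABH4, 111 on BH4, 50.8 on NIL, 56.4 on Allogen and 55.5 on Syngen.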
